A study of Mus musculus with 12 samples.

Results

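Axon guidance genes were examined in liver sinusoidal endothelial cells of mice with and without forced Notch signalling. The genes were taken by symbol from the platform annotation and comprised semaphorins of classes 3 to 7 (Sema3 to Sema7), plexins (Plxn), Slits, Robo receptors, the netrins Ntn1, Ntn3 and Ntn5, the netrin-G genes (Ntng1, Ntng2) and Unc5 receptors. They numbered 45 of 25428 probe sets, with 1 probe set for each gene, and 1 other netrin that matches the names was left out and not analysed here. The NICD-OE-HEC group came from mice with 1 Clec4g-Cre transgene and a Rosa26-N1ICD-IRES-GFP allele. The promoter of the sinusoidal lectin gene Clec4g drives the Cre recombinase. The Notch1 intracellular domain and a green fluorescent reporter are expressed from the Rosa26 allele in cells with Cre. The Control group is labelled Ctrl, and the sources used here do not give its alleles or the age, sex and strain of any mice. Each group had 6 arrays, 1 per biological replicate, and each replicate was pooled from the livers of 3 mice. Cells were freed with collagenase, passed over a density gradient and selected with beads against CD146, so the samples are enriched and not pure.

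Semaphorins, Slits and netrins are ligands first known for steering growing axons, and endothelial cells use them to guide vessel sprouts and to adjust their adhesion and cytoskeleton. Secreted class 3 semaphorins mostly act through a neuropilin joined to a plexin, whereas membrane-bound semaphorins bind plexins directly, and plexins then restrain small GTPases and integrin adhesion. Slits bind Robo receptors, netrins bind Dcc, Neo1 and Unc5 receptors, and netrin-G proteins are anchored in the membrane and bind a separate group of leucine-rich repeat proteins.

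The values were log2 expression values made with RMA (which corrects background, equalises the quantiles of arrays and sums probes into probe sets), which carry no detection call. The median of all probe sets, taken on Control replicate 2, was 3.67 and served as the array median for every array. A value under it was treated as not separable from background. Within a group, arrays correlated at 0.976 to 0.992. Control replicate 2 and NICD-OE-HEC replicate 4 stood apart on the second principal component (-48.5 and -30.3, against -8.51 to 22.3 for the other arrays). The Notch target Hey1 lay between 3.89 and 4.89 in Control and between 6.74 and 7.39 in NICD-OE-HEC, without overlap, while Notch1 overlapped (8.20 to 8.96 and 8.46 to 9.15), and whether its probe set covers the transgene is not known here. Of 12 sinusoidal endothelial markers, all were above the array median. Their mean was 10.69 to 11.00 on Control arrays and 10.02 to 10.27 on NICD-OE-HEC arrays, and 11 of the 12 were lower in NICD-OE-HEC.

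Forced Notch signalling was accompanied by changes in 12 of the 45 guidance genes, 7 lower and 5 higher (limma, adjusted p under 0.05 over all probe sets), which is 26.7% of them. The 3 largest were losses: the semaphorin receptor Plxnc1, the secreted semaphorin Sema3d and the membrane-anchored netrin-G gene Ntng2 each fell more than 5-fold. The genes that rose were the Robo ligands Slit2 and Slit3, the plexin Plxnb1, the secreted semaphorin Sema3g and the membrane-anchored semaphorin Sema7a. Of all 25428 probe sets, 10.5% were called, with 4.89% higher and 5.59% lower. For 10 of the 45 genes the groups shared no range of values, against 6.68% of all probe sets. With an absolute log2 difference of at least 1 as a further condition, 4 of the 45 remained, against 2.09% of all probe sets. The median difference over the 45 genes was 0.07 and that over all probe sets -0.01. The guidance genes were chosen with earlier results of these data known, so these shares are not a test of the family.

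**Figure D1:**
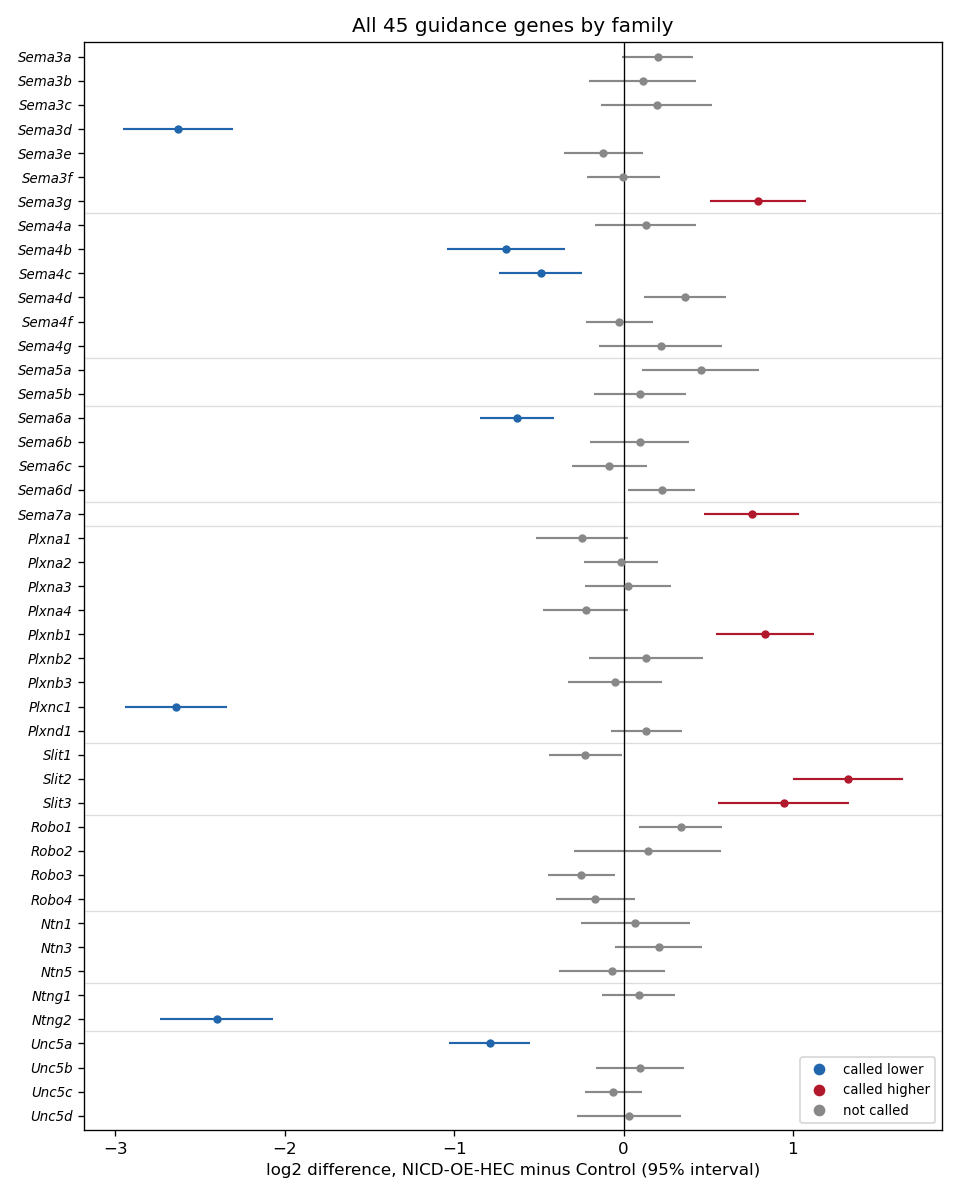
Log2 difference between the groups (NICD-OE-HEC minus Control, x axis) with its 95% interval for each of the 45 guidance genes (y axis, ordered by family, grey lines between families). Blue points are genes called lower, red points genes called higher and grey points genes not called. Plxnc1, Sema3d and Ntng2 lie beyond -2, Slit2 is at 1.32, and the intervals of all 33 grey genes lie within 0.80 of 0.

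The 45 genes differed in brightness. Both group means were below the array median for 16 of them, and 0 of these 16 were called by limma (2, Slit1 and Robo3, had an unadjusted p under 0.05). Of all probe sets below it in both groups, 1.43% were called. Of the 29 guidance genes at or above it in a group, 12 (41.4%) were called, against 19.0% of all such probe sets. In 25 genes both group means were at or above the median. Plxnb1, Sema7a, Slit2 and Sema5a reached it only through the NICD-OE-HEC mean. The first 3 of these are among the 12 called, so they entered the 29 through the group in which they were high. The share of 41.4% is therefore a description and not a test. For Slit2, Plxnb1 and Sema7a the Control mean was below the array median, so the sizes of their gains are not exact.

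**Figure D2:**
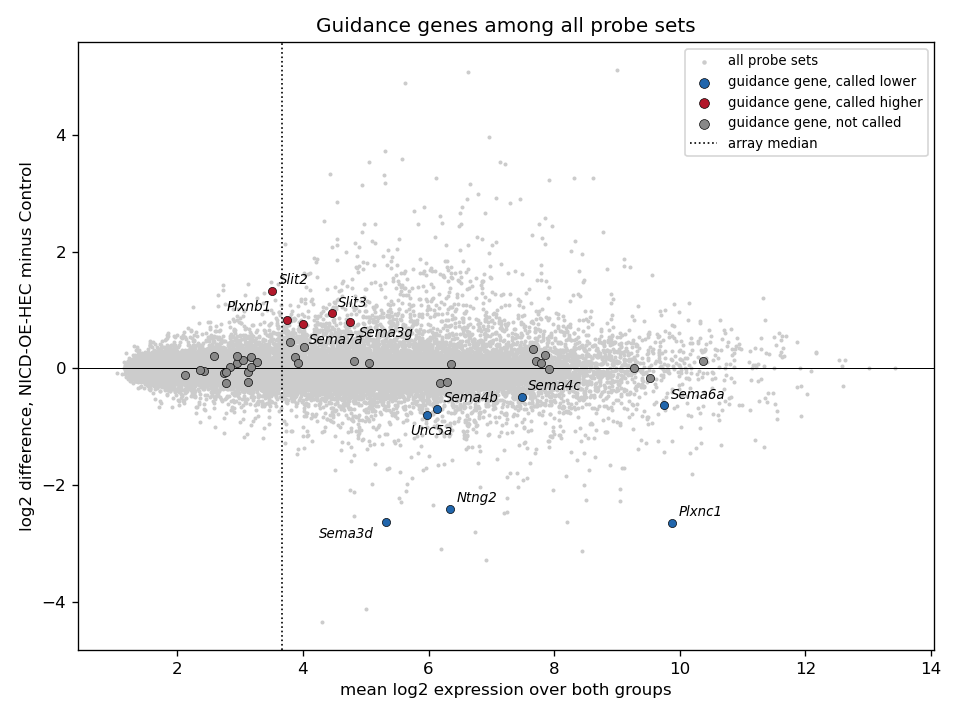
Log2 difference (NICD-OE-HEC minus Control, y axis) against the mean log2 expression over both groups (x axis) for all 25428 probe sets (light grey) and the 45 guidance genes (blue called lower, red called higher, dark grey not called). The dotted line is the array median of 3.67. Plxnc1 is bright and low on the plot, whereas the 5 genes called higher all lie at a mean below 5.

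Upstream sequences are shown for the 4 called genes that differed by more than 1, to set the 3 that fell beside the 1 that rose. Each is the 250 bases before the gene start in RefSeq (GRCm38.p6), in lower case. Capitals mark TGGGAA (the core of the motif of Rbpj, the DNA-binding partner of the Notch intracellular domain), CACGNG (sites of the kind bound by Hes and Hey repressors) and GGGCGG (a GC box) on either strand. None of these letters overlap in the sequences shown.
Plxnc1, chr10:94944846-94945095, minus strand: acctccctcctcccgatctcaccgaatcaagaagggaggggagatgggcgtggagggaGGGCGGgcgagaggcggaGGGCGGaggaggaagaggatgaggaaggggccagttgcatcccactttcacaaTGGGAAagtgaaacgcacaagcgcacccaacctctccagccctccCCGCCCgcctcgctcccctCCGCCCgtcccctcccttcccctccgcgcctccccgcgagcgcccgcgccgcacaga
Sema3d, chr5:12382916-12383165, plus strand: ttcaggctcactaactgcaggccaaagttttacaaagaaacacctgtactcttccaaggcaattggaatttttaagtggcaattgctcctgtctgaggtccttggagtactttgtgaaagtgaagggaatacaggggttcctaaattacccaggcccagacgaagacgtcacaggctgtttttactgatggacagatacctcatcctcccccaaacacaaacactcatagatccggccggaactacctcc
Ntng2, chr2:29248100-29248349, minus strand: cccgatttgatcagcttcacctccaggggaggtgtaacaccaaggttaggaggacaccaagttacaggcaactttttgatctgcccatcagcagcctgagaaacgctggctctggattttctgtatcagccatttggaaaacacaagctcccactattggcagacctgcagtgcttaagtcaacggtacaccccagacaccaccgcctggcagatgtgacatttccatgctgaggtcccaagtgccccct
Slit2, chr5:47982905-47983154, plus strand: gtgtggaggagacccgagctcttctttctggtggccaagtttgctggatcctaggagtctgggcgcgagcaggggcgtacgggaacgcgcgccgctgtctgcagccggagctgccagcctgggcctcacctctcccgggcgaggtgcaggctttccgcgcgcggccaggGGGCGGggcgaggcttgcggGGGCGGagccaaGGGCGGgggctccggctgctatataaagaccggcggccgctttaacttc

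The window of Plxnc1 held 1 TGGGAA and 4 GGGCGG, that of Slit2 held 3 GGGCGG, and those of Sema3d and Ntng2 held none of the 3 motifs. In base composition Plxnc1 (68.8% G and C) and Slit2 (69.6%) resembled each other more than Sema3d (46.8%) and Ntng2 (52.4%), although Plxnc1 fell and Slit2 rose. Of the 45 genes, 37 had an entry, with 50 starts in all, and the others were Ntn1, Plxna1, Plxna4, Sema3b, Sema3f, Sema6a, Slit1 and Unc5d. TGGGAA stood in 16.0% of the 50 windows and in 21.6% of the 32851 windows of all genes. CACGNG stood in 28.0% and 23.5%, and GGGCGG in 64.0% and 32.7%, in windows whose median G and C content was 63.2% for the guidance genes and 52.4% for all genes. These are matches of letters and not measured sites.

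Among the 9 plexins, the receptors of semaphorins, 1 fell and 1 rose. Plxnc1, the receptor of Sema7a, had a lowest, median and highest value of 10.94, 11.19 and 11.41 in Control and of 8.25, 8.48 and 9.15 in NICD-OE-HEC. The groups lay 1.79 apart at their nearest arrays, and NICD-OE-HEC replicate 1 was the highest of its group. The means were 11.20 ± 0.19 and 8.56 ± 0.32 (SD, n = 6 each), a log2 difference of -2.64 (SE 0.14, limma adjusted p = 1.54e-08), or 6.24-fold lower, and 36th in absolute size among all probe sets. Because these are bulk samples, fewer cells that express a gene and less of its RNA in each cell cannot be told apart. Plxnc1 fell on the same arrays as the sinusoidal markers given above, whose median difference was -0.76, and the part of that shift in its change was not tested.

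Plxnb1, the receptor of Sema4d, moved up from a low level. Its Control values were 3.05, 3.27 and 3.88 (lowest, median, highest) and its NICD-OE-HEC values 4.01, 4.06 and 4.45. The groups did not overlap, with Control replicate 5 nearest to the NICD-OE-HEC arrays at 3.88. Its log2 difference was 0.84 (SE 0.14, limma adjusted p = 6.65e-04). The other 7 plexins were not called and their differences lay between -0.25 (Plxna1) and 0.13 (Plxnd1). Plxnd1, the endothelial plexin that binds Sema3e without a neuropilin, was 10.30 ± 0.19 in Control and 10.44 ± 0.10 in NICD-OE-HEC, a difference of 0.13 with a 95% interval of -0.08 to 0.34. Plxna2, a receptor of Sema6a, differed by -0.01 (95% interval -0.23 to 0.21).

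The 7 secreted class 3 semaphorins split, with 1 lower, 1 higher and 5 not called. Sema3d, which acts through neuropilins and patterns vessels and heart in development, ranged from 6.27 to 6.90 in Control with a median of 6.73. In NICD-OE-HEC it ranged from 3.65 to 4.28 with a median of 4.07, so its lowest array was just below the array median. No array of one group came within 1.99 of the other group. The log2 difference was -2.63 (SE 0.15, limma adjusted p = 2.87e-08), a 6.19-fold lower level and 38th in absolute size among all probe sets.

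Sema3g, a neuropilin ligand made by arterial endothelium, moved the other way. Its lowest, median and highest values were 4.11, 4.36 and 4.72 in Control and 4.86, 5.11 and 5.44 in NICD-OE-HEC. The nearest arrays of the groups were 0.14 apart, with Control replicate 5 the highest of its group and NICD-OE-HEC replicate 6 the lowest of the other. The difference came to 0.80 on the log2 scale (SE 0.13, limma adjusted p = 8.17e-04). Sema3f, a neuropilin ligand that was well above the array median, was 9.28 ± 0.16 in Control and 9.28 ± 0.15 in NICD-OE-HEC, and its difference had a 95% interval of -0.21 to 0.21. Sema3a, Sema3b and Sema3e were below the array median in both groups, and Sema3c (3.78 and 3.97) was just above it.

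**Figure D3:**
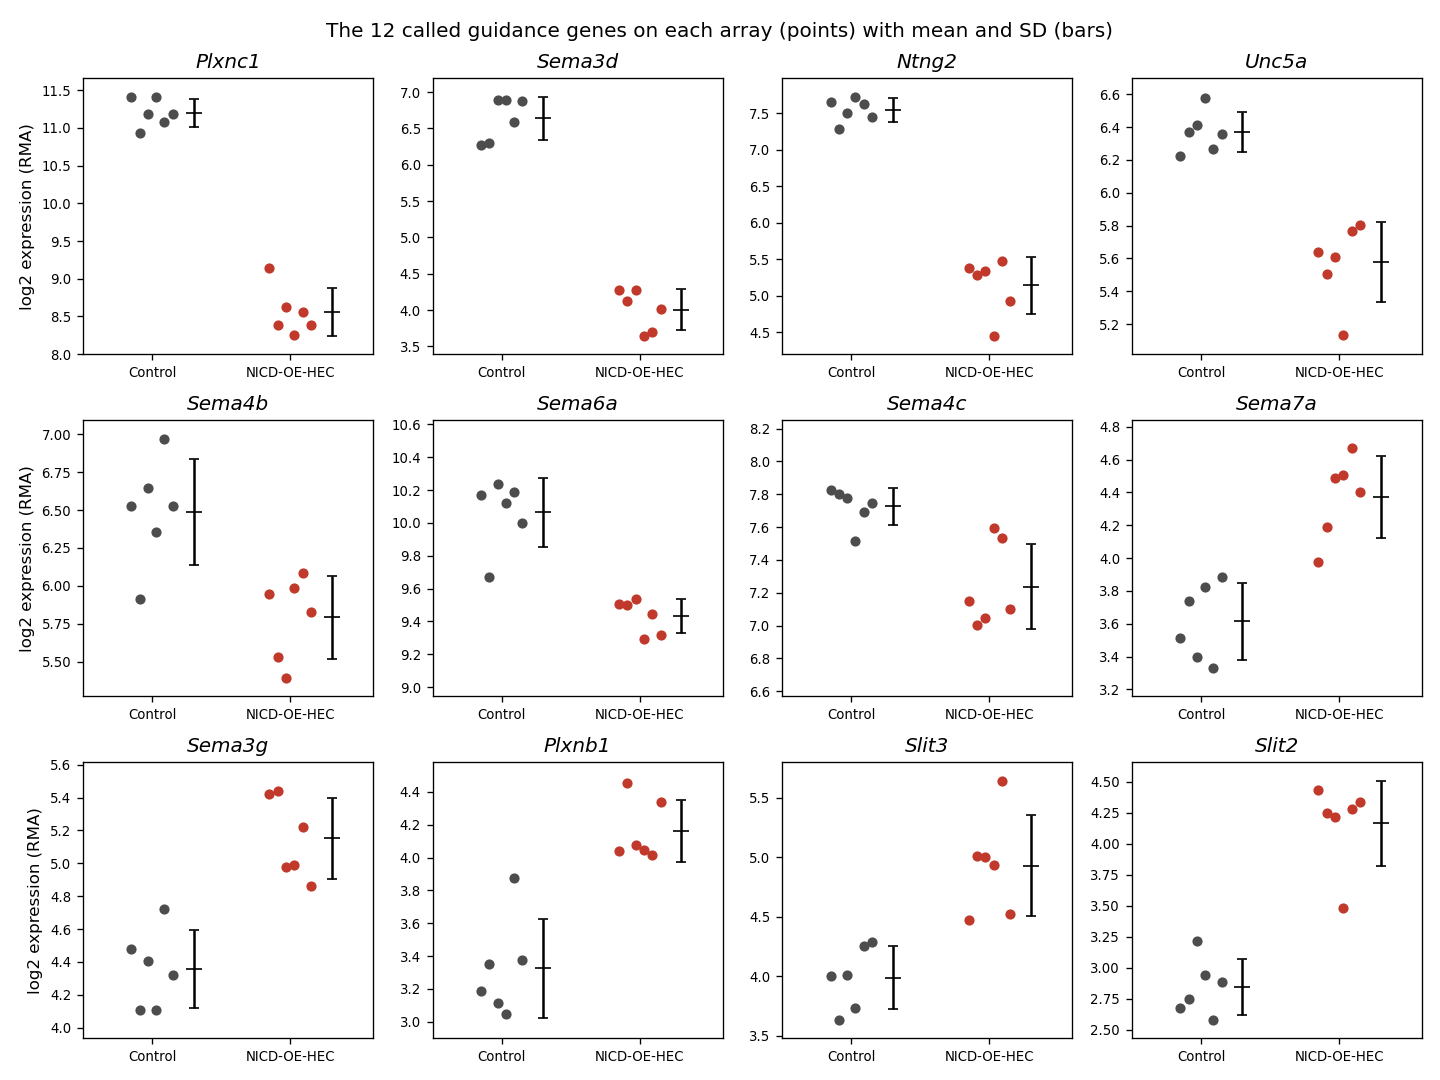
Log2 expression (y axis) of the 12 called guidance genes on each of the 6 Control arrays (grey points) and the 6 NICD-OE-HEC arrays (red points), with the mean and SD of each group beside them (black bars). Each panel has its own scale. Only Sema4b and Sema4c overlap between the groups, and Slit2 is lowest on NICD-OE-HEC replicate 4.

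Of the 6 class 4 semaphorins, which span the membrane, 2 fell, and both overlapped between the groups. Sema4b ranged from 5.91 to 6.97 in Control (median 6.53) and from 5.39 to 6.09 in NICD-OE-HEC (median 5.89). Control replicate 2 was the lowest Control array and lay below NICD-OE-HEC replicates 1, 4 and 5. On the log2 scale Sema4b differed by -0.69 (SE 0.16, limma adjusted p = 0.0113). Sema4c, a ligand of Plxnb2, ranged from 7.52 to 7.83 in Control (median 7.76) and from 7.00 to 7.59 in NICD-OE-HEC (median 7.12). Its Control replicate 4 overlapped with NICD-OE-HEC replicates 4 and 5, and the log2 difference was -0.49 (SE 0.12, limma adjusted p = 0.0114).

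Sema4d, the ligand of Plxnb1, was 3.84 ± 0.25 in Control and 4.21 ± 0.12 in NICD-OE-HEC, and its difference of 0.36 missed the threshold (limma adjusted p = 0.0548). It passed without Control replicate 2 (0.42, limma adjusted p = 0.0218), and under 4 other settings listed with the processing alternatives. Plxnb2, the receptor of Sema4c, differed by 0.13 (95% interval -0.20 to 0.47). Sema4a, a semaphorin that also acts on immune cells, differed by 0.13 without a call, and Sema4f and Sema4g were below the array median in both groups.

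Class 5 and class 6 semaphorins gave 1 call among 6 genes. Sema6a, a membrane-bound ligand of class A plexins, was 9.67, 10.15 and 10.23 (lowest, median, highest) in Control and 9.29, 9.47 and 9.54 in NICD-OE-HEC. Control replicate 2 was the lowest Control array, 0.13 above the highest NICD-OE-HEC array. The log2 difference was -0.63 (SE 0.10, limma adjusted p = 6.81e-04). Its relatives Sema6b (0.10, 95% interval -0.20 to 0.39) and Sema6d (0.23, 95% interval 0.03 to 0.42, limma adjusted p = 0.161) were not called, and Sema6c was below the array median. Sema5a, whose extracellular part carries thrombospondin repeats, differed by 0.46 (limma adjusted p = 0.0933), and passed without Control replicate 5 (0.54, limma adjusted p = 0.0424) or without NICD-OE-HEC replicate 3 (0.57, limma adjusted p = 0.0191). Sema5b differed by 0.10 without a call.

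Sema7a, the lipid-anchored semaphorin that binds Plxnc1 and integrins, rose while its plexin fell. The lowest, median and highest values of Sema7a were 3.33, 3.63 and 3.89 in Control and 3.98, 4.44 and 4.67 in NICD-OE-HEC. The groups were 0.09 apart at their nearest arrays. That is a log2 difference of 0.76 (SE 0.13, limma adjusted p = 0.00127). The Control mean of 3.62 was below the array median and is treated here as not separable from background.

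Slits, the secreted ligands of Robo receptors, gave 2 gains among 3 genes. Slit2 was 2.58, 2.82 and 3.21 (lowest, median, highest) in Control, where every array was below the array median, and 3.49, 4.26 and 4.43 in NICD-OE-HEC. NICD-OE-HEC replicate 4 was far below the rest of its group, and it too was below the array median. The means were 2.84 ± 0.23 and 4.17 ± 0.34 (SD, n = 6 each), with a log2 difference of 1.32 (SE 0.15, limma adjusted p = 2.93e-05). Slit3 was 3.63, 4.00 and 4.29 in Control and 4.47, 4.97 and 5.64 in NICD-OE-HEC, and its groups did not overlap. Its log2 difference was 0.94 (SE 0.18, limma adjusted p = 0.00259), with NICD-OE-HEC replicate 5 the highest of its group. Slit1, best known from the nervous system, was below the array median in both groups.

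None of the 4 Robo receptors was called by limma at an adjusted p under 0.05, while 2 of the 4, Robo1 and Robo3, had an unadjusted p under 0.05. Robo4, the member typical of endothelium, was 9.62 ± 0.18 in Control and 9.45 ± 0.19 in NICD-OE-HEC, a difference of -0.17 (95% interval -0.40 to 0.07). Robo1, a receptor of Slit2, was 7.50 ± 0.24 and 7.84 ± 0.15, a difference of 0.34 (95% interval 0.09 to 0.58, limma adjusted p = 0.0845). It passed without Control replicate 5 (0.40, limma adjusted p = 0.0401). Robo2 and Robo3 were below the array median in both groups. Robo3 differed by -0.25 (limma adjusted p = 0.118) and passed without NICD-OE-HEC replicate 2 (-0.31, limma adjusted p = 0.0352).

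Both Slits that rose are also made by mesenchymal cells, and the mean of the mural markers was also higher in the NICD-OE-HEC group. Of 12 mural markers 7 were higher and 0 lower in NICD-OE-HEC, and their mean was 4.69 to 5.15 on Control arrays and 5.58 to 6.03 on NICD-OE-HEC arrays. Much of that shift came from the channel subunits Abcc9 (6.98 in Control, 10.24 in NICD-OE-HEC) and Kcnj8 (5.30 and 8.29), listed here as mural markers. Their log2 differences were 3.26 and 2.99, while the median over the list was 0.55. Which cells gave these 2 signals was not tested. Cnn1, Actg2, Cspg4, Des and Higd1b were not called (-0.03 to 0.23), and Higd1b was below the array median in both groups. Of 14 stellate cell and fibroblast markers 4 were higher and 1 lower, with a list mean of 4.55 to 5.56 in Control and 5.21 to 5.63 in NICD-OE-HEC. The 4 were Col1a1, Col1a2, Col3a1 and Rgs5, and Rgs5 is also counted among the mural markers. Lrat was the 1 that was lower (log2 difference -0.75). The part of these cells in the values of Slit2 and Slit3 was not tested.

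Of the 5 netrin and netrin-G genes examined, 1 was called, and it fell. Ntng2, whose product sits on the cell surface and binds the adhesion protein Lrrc4, was 7.29, 7.57 and 7.72 (lowest, median, highest) in Control and 4.45, 5.31 and 5.47 in NICD-OE-HEC. The groups were 1.81 apart at their nearest arrays, and NICD-OE-HEC replicate 4 was the lowest of all. The log2 difference was -2.40 (SE 0.16, limma adjusted p = 9.39e-08), or 5.29-fold lower. Ntng1, the other gene of that branch, was below the array median in both groups. Among the secreted netrins, Ntn1, the classical attractant, was 6.33 ± 0.20 in Control and 6.40 ± 0.35 in NICD-OE-HEC (difference 0.07, 95% interval -0.25 to 0.39), and Ntn3 and Ntn5 were below the array median.

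Of the 4 Unc5 genes, which encode netrin receptors, 1 fell. Unc5a was 6.23, 6.36 and 6.58 (lowest, median, highest) in Control and 5.14, 5.63 and 5.80 in NICD-OE-HEC. The groups were 0.42 apart, and NICD-OE-HEC replicate 4 was again the lowest array. On the log2 scale the difference was -0.79 (SE 0.11, limma adjusted p = 2.06e-04). Unc5b, the netrin receptor of endothelial tip cells, was 5.01 ± 0.20 and 5.10 ± 0.24, a difference of 0.10 with a 95% interval of -0.16 to 0.36. Unc5c and Unc5d were below the array median in both groups.

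Other genes of these pathways were taken from lists of co-receptors and membrane partners, ligands and cytoplasmic effectors. Of 91 measured, 14 were higher and 15 lower, with a median difference of 0.00, beside 4.89% and 5.59% of all probe sets. The lists were chosen with earlier results of these data known, so these counts are not a test of the pathways. Among 25 membrane partners 7 fell and 2 rose. The 2 were Plxdc2, below the array median in both groups (3.03 and 3.47), and Met, whose call was lost in 10 fits without a single array. The neuropilins, which carry class 3 semaphorins and VEGF to their receptors, were both among those that fell: Nrp1 from 10.63 ± 0.13 to 9.95 ± 0.12 (log2 difference -0.68, SE 0.09, limma adjusted p = 1.05e-04) and Nrp2 from 9.62 ± 0.08 to 9.01 ± 0.14 (log2 difference -0.61, SE 0.09, limma adjusted p = 1.69e-04). Neo1, a receptor of netrins and of repulsive guidance molecules, fell by 0.64. Flrt1, of a family of adhesion proteins that bind Unc5 receptors, fell by 2.11 from 6.70 ± 0.15, and the heparan sulfate proteoglycan Gpc1, which binds Slits, fell by 1.16. Dcc, the netrin receptor of neurons, was below the array median in both groups (2.27 and 2.35).

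Of 12 other ligands 3 rose and 0 fell. Vegfc and Vegfa, which bind neuropilins as well as VEGF receptors, rose by 3.22 and 1.43, in the same samples in which both neuropilins were lower. The other, Vegfd, was below the array median in both groups (2.83 in Control and 3.57 in NICD-OE-HEC).

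Effectors on the plexin side gave 3 gains and 5 losses among 31 measured genes. Rnd1, a small GTPase that binds the cytoplasmic part of plexins, rose by 1.93 from 4.31 ± 0.23 to 6.24 ± 0.70, with the widest spread of the partners named. Mical2, an enzyme that oxidises actin, rose by 0.90. Effectors on the Robo and netrin side gave 6 gains and 3 losses among 23. The Ena/VASP protein Evl rose by 1.06 and the adaptor Nck2 by 0.89. The actin-binding protein Ablim3 rose as well (3.23 in Control, 4.84 in NICD-OE-HEC), and Tiam1, an activator of the GTPase Rac, fell (4.50 and 3.49). The lower mean of each lay below the array median, so the sizes of these 2 differences are not exact. On these arrays 12 of 14 early-response genes, a class that tissue dissociation can switch on, were higher as well, with a list mean of 6.63 to 7.93 in Control and 7.82 to 9.46 in NICD-OE-HEC, and their part in the effectors' values was not tested.

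**Figure D4:**
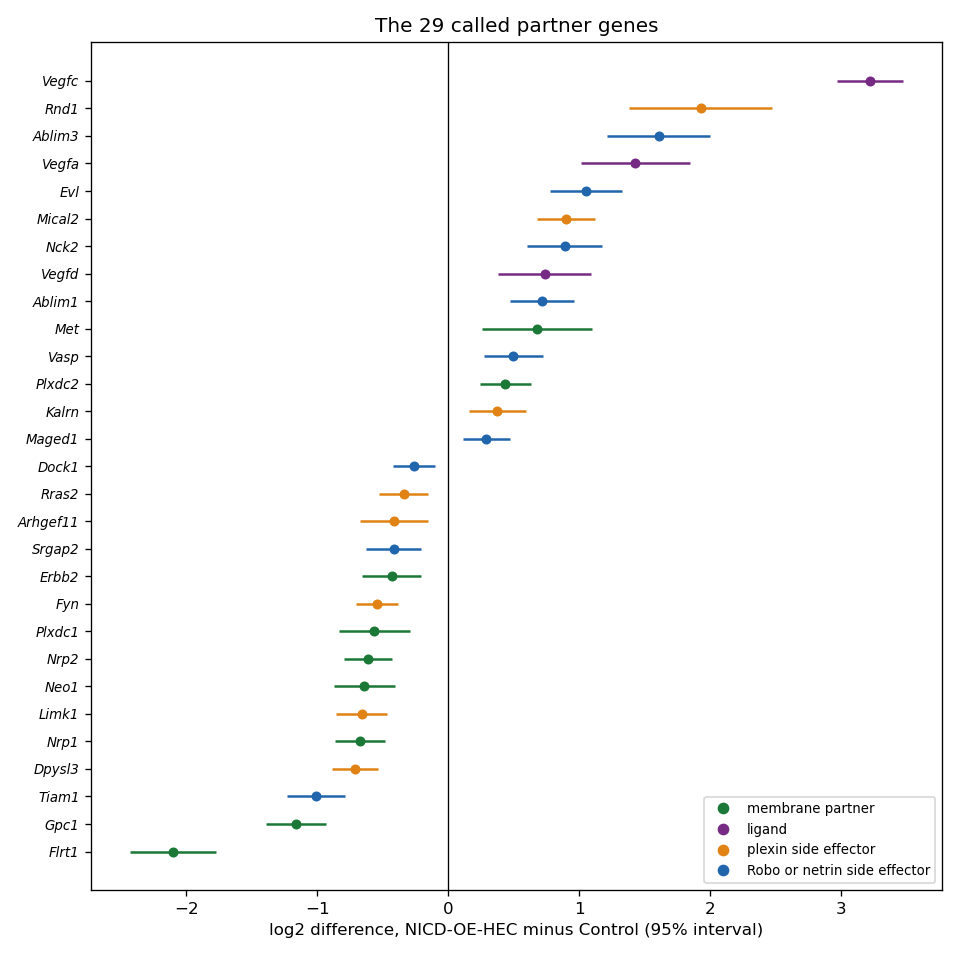
Log2 difference (NICD-OE-HEC minus Control, x axis) with its 95% interval for the 29 called genes among 91 co-receptors, ligands and effectors of the guidance pathways (y axis, ordered by difference), coloured by role. Vegfc is highest at 3.22 and Flrt1 lowest at -2.11, and Nrp1, Nrp2 and Neo1 lie between -0.68 and -0.61.

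Markers of other cells differed between the groups and are given for the lists not yet described. Neutrophil markers were higher for 8 of 12 genes, with a list mean of 3.22 to 4.39 in Control and 4.56 to 6.49 in NICD-OE-HEC, and 5 of the 12 were above the array median in both groups. Cholangiocyte markers were higher for 6 of 6 (3.67 to 4.04 and 4.34 to 4.79), of which Cftr was below the array median in both groups and Krt19 and Cldn7 in Control. Hepatocyte markers were higher for 4 of 10 (6.10 to 7.44 and 6.64 to 8.13). Their median difference was 0.87 and 7 had an unadjusted p under 0.05, while Cyp2e1 differed by -0.33 without a call. Of 11 Kupffer cell and macrophage markers 1, Marco, was higher. All 11 had a difference above 0, with a median of 0.45, and 4 had an unadjusted p under 0.05. Of 11 lymphocyte markers 0 were called by limma and 0 had an unadjusted p under 0.05. Of 5 measured lymphatic endothelial markers 2 were higher and 1 lower, and of 12 general endothelial markers 2 were higher and 5 lower; all 12 were above the array median. The part of other cells in the low-level gains of Plxnb1, Sema3g and Sema7a was not tested.

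**Figure D5:**
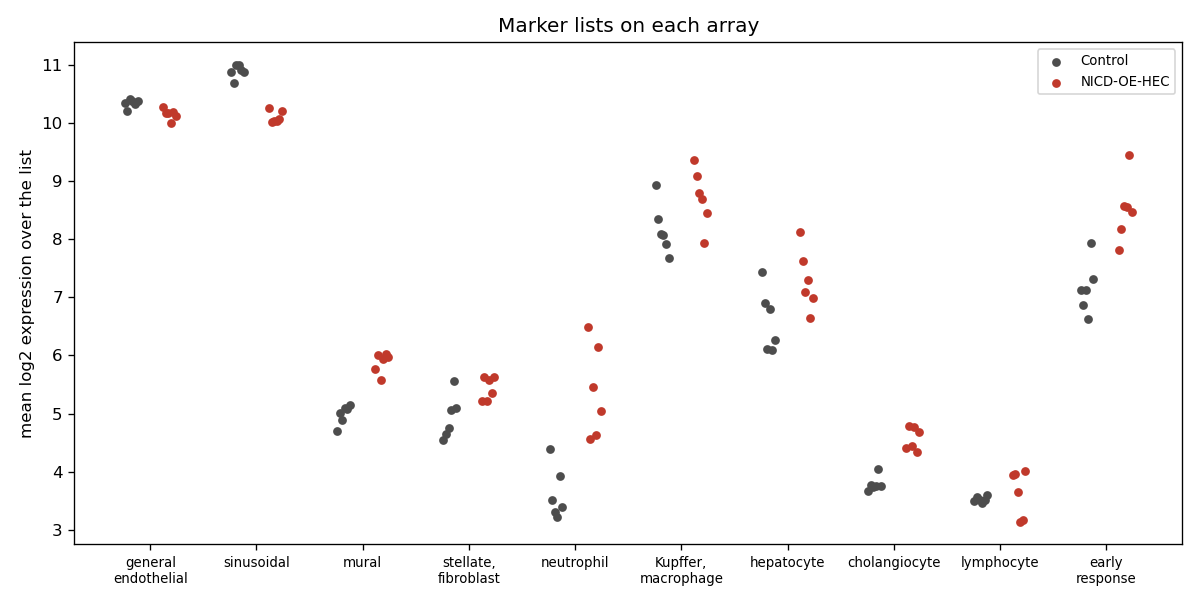
Mean log2 expression over each marker list (y axis) on each array, for Control (grey points) and NICD-OE-HEC (red points), with the lists along the x axis. The mural, cholangiocyte and neutrophil lists lie higher in NICD-OE-HEC without overlap and the sinusoidal list lower, while the stellate and hepatocyte lists overlap.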

How the data were processed

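Expression was measured on 12 Affymetrix arrays, 6 per group, from CD146-selected liver cells of pooled mice. The deposited values are log2 expression values that the authors made with RMA, per the submitters' processing notes. Its software, the chip definition and the build are not named in those notes (not given in the sources used here). Probe sets were named from the platform annotation of 2018 (24705 with 1 symbol, 723 with none), and the symbols of the 45 guidance genes matched RefSeq (GRCm38.p6). Differences, SE and 95% intervals came from limma 3.58.1 under R 4.3.3, fitted to the 2 groups by lmFit and eBayes with no covariate or filter, two-sided, with Benjamini-Hochberg adjustment over all 25428 probe sets. SD is the spread over the 6 arrays of a group, and their number limits the precision. The fit was tested on simulated data. Alternatives were median centring, further quantile normalization, filters on dim probe sets, the replicate block, arrayWeights, eBayes with robust and trend settings, fits without single arrays or without the 2 that stood apart, and a minimum difference. Members and lists were chosen with earlier results of these data known. Every guidance gene is accounted for. Of partners, the 10 with the largest differences plus Nrp1, Nrp2, Neo1 and Dcc are named, as are some whose call was dim or changed with the processing. Promoter windows came from RefSeq and were searched in Python.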

Additional observations from a re-analysis of the deposited data

Results flagged for a closer look

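In 5 of 90 groups of 6 arrays (45 genes in 2 groups), 1 array stood apart by Dixon's test, and chance gives about 1 in 20. Slit2 was 3.49 on NICD-OE-HEC replicate 4, against 4.22 to 4.43 on the other arrays of that group, and without that array its difference was 1.46 (SE 0.11, limma adjusted p = 1.18e-06). Sema3e (1.83 against 2.06 to 2.19) was also lowest there, and Unc5d (3.54 against 2.99 to 3.19) highest. Sema3a was 3.44 on Control replicate 1, against 2.92 to 3.07, and Sema6c was 3.04 on NICD-OE-HEC replicate 1, against 2.55 to 2.70. Apart from Slit2, these genes were not called and lay below the array median in both groups.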

How the results depend on the processing

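All 12 called guidance genes kept their call and direction when any 1 array, or Control replicate 2 and NICD-OE-HEC replicate 4 together, was left out. They also kept them under the trend with robust eBayes, array weights and the replicate block. Median centring and further quantile normalization gave the same counts as the main fit (12 guidance genes, 29 partners and 2666 probe sets). RMA had already equalised the quantiles of arrays, so these 2 settings could change little. Without the dimmest 50 percent of probe sets Slit2 was no longer tested and the other 11 were called. A minimum log2 difference of 1 left 330 of the higher and 201 of the lower probe sets (531 together), 1 and 3 guidance genes (4) and 5 and 3 partners (8). With single arrays left out, guidance genes called numbered 12 to 14, partners 25 to 29 and probe sets 2107 to 2970. Among partners, Met and Arhgef11 each lost their call in 10 of these fits, Dock1 and Maged1 in 8 each and Kalrn in 4. Sema4d was also called with array weights (0.41), without the 2 arrays that stood apart (0.42) and with either filter on dim probe sets (0.36 each). The labels do not say that replicate numbers pair the arrays, and the data leave it unsettled: same-numbered arrays correlated at -0.10 to 0.22 in their deviations from the group means, above 0.1 in 3 of 6 pairs, and 3 of 6 Control arrays correlated best with their own number. With the replicate block, 14 guidance genes were called, the added ones being Robo1 and Sema5a, and 2507 probe sets, while 25 partners were called, without Met, Arhgef11, Dock1 and Maged1.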

Other observations

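Spread within groups did not change in one direction. Of the 45 guidance genes 24 had a larger SD in NICD-OE-HEC and 21 a smaller one, and the SDs ran from 0.05 (Sema6d, Control) to 0.42 (Slit3, NICD-OE-HEC). The mean absolute deviation of these genes from their group mean was largest on Control replicate 2 (0.26) and NICD-OE-HEC replicate 4 (0.23), where it was 0.25 and 0.22 over all probe sets. On Control replicate 5 it was 0.21 for the guidance genes and 0.16 for all probe sets. That array was the highest Control array for Sema3g, Plxnb1 and Sema4b and the lowest for Slit2 and Sema7a. NICD-OE-HEC replicate 4 was the lowest array of its group for Plxnc1, Sema3d, Ntng2, Sema6a, Unc5a and Slit2.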
